A study of Homo sapiens with 9 samples.

Results

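The VEGF receptors, their ligands and the neuropilins, the co-receptors of the family, were followed in SNU5, a gastric carcinoma line of human origin. They were chosen by symbol, as the genes of the pathway that ramucirumab blocks. The 9 members are the receptors KDR, FLT1 and FLT4, the neuropilins NRP1 and NRP2, and the ligands VEGFA, VEGFB, VEGFC and PGF. All 9 were found among the 60880 Ensembl gene IDs of each count table. The NR group received gold nanorods coated with polyethylene glycol and ramucirumab (AuNR-PEG-Ab), the SP group received gold nanospheres with the same coating (AuSP-PEG-Ab), and the Ab group received ramucirumab without gold. Each treatment lasted 24 h at 8 μg/mL of antibody, so ramucirumab was common to all 3 groups, and no untreated library was analysed here. Poly-A RNA was sequenced in 3 libraries per group, all from 1 cell line. The study calls them biological replicates, but the labels do not tie a library to a culture, and the p-values measure the spread between these libraries.

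VEGF ligands are secreted dimers that bind receptor tyrosine kinases. VEGFA binds VEGFR1 (FLT1) and VEGFR2 (KDR), PGF and VEGFB bind VEGFR1, and VEGFC binds VEGFR3 (FLT4) and, once processed, VEGFR2. Ramucirumab binds the extracellular part of VEGFR2 and keeps ligands from it. Neuropilins have short cytoplasmic tails, hold some VEGF isoforms for the receptors and also bind class 3 semaphorins. The receptors are best known from endothelial cells, while many carcinomas secrete VEGFA.

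Depth differed between libraries. The NR group had 25735410, 13863155 and 15943980 counts in libraries 1, 2 and 3. There were 21682836, 22914759 and 20601906 in SP and 19566064, 26318227 and 21031024 in Ab. A count of 3 was taken as the detection floor. It stood for 0.114 to 0.216 CPM (the count divided by the library total, on the usual scale), highest in NR library 2, the shallowest. Such floors and the counting intervals given here cover counting error only. NR libraries 2 and 3 stood apart from the other 7 in some kinase genes, picked out with their values in view. KIT, a receptor tyrosine kinase, had 167, 1 and 0 counts in NR, 160, 189 and 162 in SP, against 173, 195 and 139 in Ab. PDGFRA had 58, 0 and 0 counts in NR and at least 45 in every SP and Ab library, and PIK3CA had 1062, 274 and 314 counts in NR and at least 972 in the others. Of their exon bases, 16.1% in PDGFRA and 19.8% in PIK3CA are shared with another gene, which makes their counts uncertain. For this reason the values of the VEGF genes in NR against Ab are also given without these 2 libraries, an alternative chosen after seeing the data. It is a fit of the 7 libraries left, in which NR is 1 library that is assumed to vary like the SP and Ab libraries, so its p-values rest on the spread of the other groups.

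The labelled cell type was checked against its markers. Of 15 gastric epithelial markers, KRT19, TFF3, VIL1 and CDX2 had at most 3 counts in every library, and VIL1 and CDX2 had 0 (for VIL1, 44.2% of its exon bases are shared with another gene, which makes its count uncertain). The most abundant was KRT8, a simple epithelial keratin. The line is called by its label here.

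The receptors were at or near 0 counts in all 3 groups. KDR, which encodes the target of ramucirumab, had 0, 0 and 1 counts in NR libraries 1, 2 and 3, and 0 counts in all SP and all Ab libraries. This is 1 of 187657361 counts over the 9 libraries, with an exact 95% Poisson interval of 0.0253 to 5.57 counts. FLT1 had 1, 0 and 0 counts in NR, 0 in each SP library, and 0, 1 and 1 in Ab. FLT4, the receptor of lymphatic endothelium, had 0, 3 and 0 counts in NR, 2, 0 and 2 in SP, against 3, 0 and 0 in Ab, 10 counts in all. No library exceeded the floor for any of the 3 receptors. These are RNA counts, and protein was not measured in these libraries. From flow cytometry with ramucirumab, the paper proposes that SNU5 could be high in VEGFR2. The receptors did not pass the filter of the edgeR fits used here, and no fold is given, since both groups of every comparison were at the floor. Where an alternative without this filter gave an adjusted p for a receptor, the lowest was 0.364 (FLT1 in SP against Ab, edgeR). The floor of KDR was 0.0659 to 0.124 TPM, that is, counts per length of its merged exons, scaled to the same sum in each library. The level of NRP1 was 83.3 to 133 times this floor in NR libraries. On GRCh37, KDR lies at chr4:55944648-55991762, FLT1 at chr13:28874483-29069282 and FLT4 at chr5:180028506-180076624, all on the minus strand. The exons of the 3 genes share 0% of their bases with other annotated genes. PDGFRA is on the same chromosome as KDR at chr4:55095447-55164412, and it had 45 to 72 counts in the 7 libraries other than NR libraries 2 and 3.

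**Figure D1:**
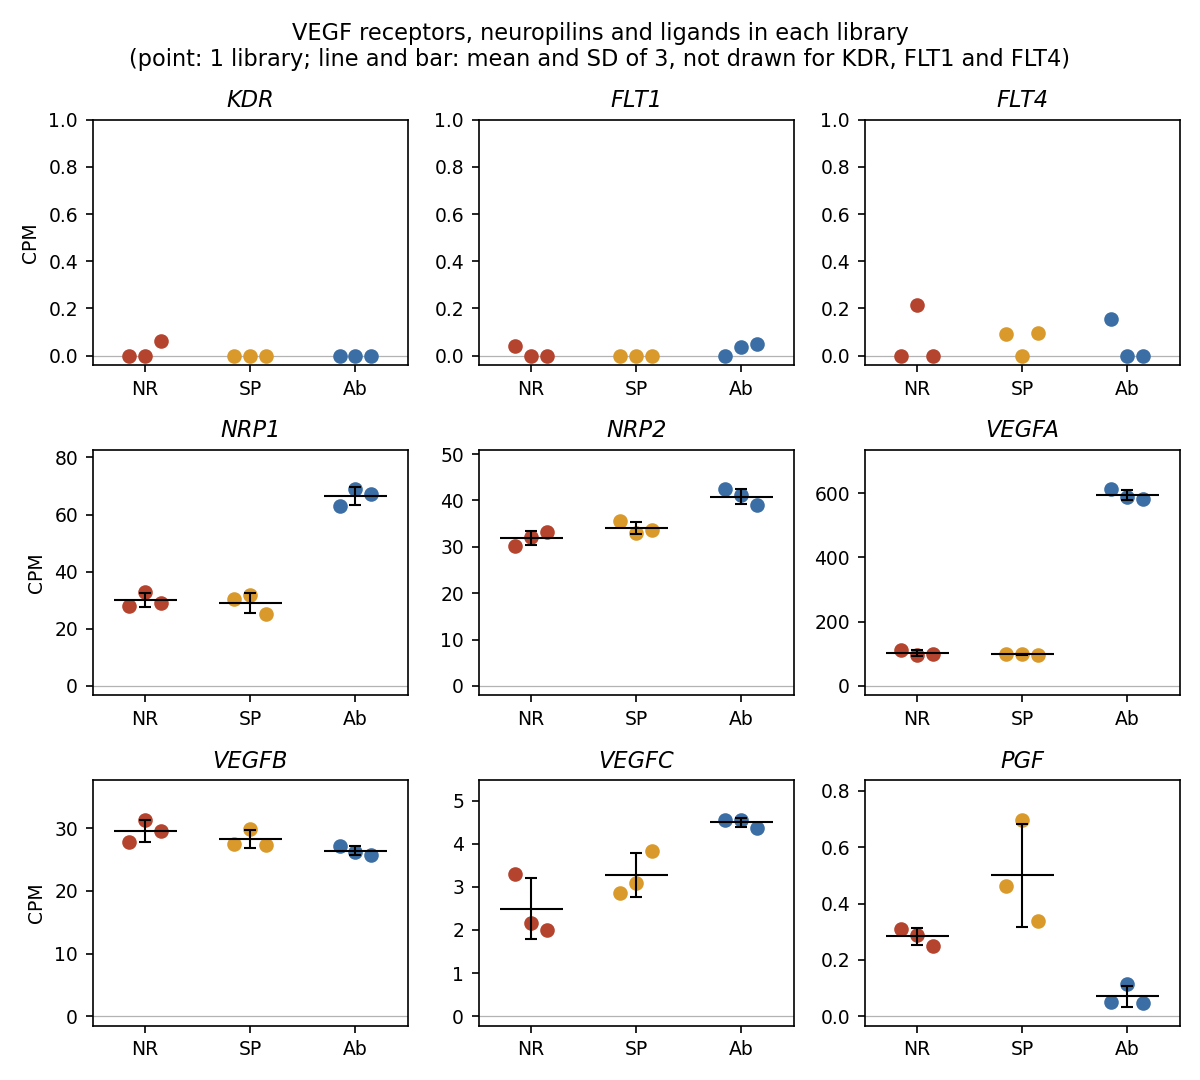
CPM of each of the 9 genes (vertical axis, linear, from 0) in the NR, SP and Ab groups (horizontal axis). Points are libraries and black marks are the mean ± SD of 3, not drawn for the 3 receptors, which stay at or under the floor of 0.114 to 0.216 CPM. VEGFA and NRP1 are highest in all 3 Ab libraries.

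The promoter windows of KDR and FLT1, the 2 receptors with the fewest counts, are shown beside that of VEGFB, a ligand read in every library. They are the 250 bases before the start of the gene in RefSeq (GRCh38.p14), printed 5′ to 3′ on the strand of the gene. KDR is at chr4:55125596-55125845, FLT1 at chr13:28495129-28495378 and VEGFB at chr11:64234334-64234583. KDR and FLT1 are on the minus strand and VEGFB is on the plus strand. Capitals mark GGGCGG, the core letters of an SP1 site, on either strand.
KDR: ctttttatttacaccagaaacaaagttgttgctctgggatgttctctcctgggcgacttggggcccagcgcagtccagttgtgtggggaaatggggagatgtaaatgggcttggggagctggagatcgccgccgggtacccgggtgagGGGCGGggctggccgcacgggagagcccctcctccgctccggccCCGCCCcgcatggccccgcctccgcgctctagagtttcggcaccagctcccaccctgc
FLT1: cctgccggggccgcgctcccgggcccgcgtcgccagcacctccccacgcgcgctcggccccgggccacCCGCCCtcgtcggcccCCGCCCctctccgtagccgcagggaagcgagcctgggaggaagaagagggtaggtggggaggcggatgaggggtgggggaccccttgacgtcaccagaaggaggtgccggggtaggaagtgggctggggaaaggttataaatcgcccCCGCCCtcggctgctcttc
VEGFB: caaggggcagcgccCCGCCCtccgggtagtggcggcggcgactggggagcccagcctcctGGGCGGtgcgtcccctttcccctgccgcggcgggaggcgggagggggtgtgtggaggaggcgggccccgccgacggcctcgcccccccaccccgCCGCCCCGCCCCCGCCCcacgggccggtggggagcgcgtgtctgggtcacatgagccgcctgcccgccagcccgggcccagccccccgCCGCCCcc
The SP1 letters occurred 2 times in KDR, 3 times in FLT1 and 6 times in VEGFB, overlapping matches included. Windows were found for 6 of the 9 members, and the others with one were NRP2 and VEGFC, with 3 and 2 matches, and PGF, with 3 and 2 matches in its 2 windows. Of the 35116 RefSeq promoters of this length, 42.6% held GGGCGG. The letters ACGTG, the core of the HIF response element (18.5% of all promoters), TGANTCA, the AP-1 element (6.57%), and TGATGNAAN, the composite element of ATF4 (3.13%), had no match in the windows of these 6 genes. VEGFA, NRP1 and FLT4 are not among them. These matches only describe the letters in the windows. The SP1 letters were in the windows of both receptors at the floor and in those of the 4 other members.

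The neuropilins were both read in every library, and both were lower in the nanoparticle groups. NRP1 (ENSG00000099250, GRCh37 chr10:33466420-33625190) had 724, 454 and 464 counts in NR, 660, 728 and 519 in SP, against 1229, 1812 and 1416 in Ab. Scaled to depth, this was 30.0 ± 2.43 CPM (SD, n = 3) in NR, 29.1 ± 3.48 in SP and 66.3 ± 3.14 in Ab. Each Ab library was above each NR and SP library, while NR and SP overlapped. NRP1 fell 2.27-fold in NR against Ab (-1.18 on the log2 scale, SE 0.07, adjusted p = 2.71e-15, quasi-likelihood fit of edgeR, adjusted by Benjamini-Hochberg over all tested genes) and 2.32-fold in SP (log2 fold change -1.21, SE 0.07, adjusted p = 3.40e-14). In the fit with 1 NR library, its log2 fold change in NR was -1.26. NRP2 (ENSG00000118257, chr2:206546714-206662857) had 777, 446 and 530 counts in NR, 771, 756 and 694 in SP, against 830, 1081 and 821 in Ab. The levels were 31.9 ± 1.55, 34.1 ± 1.33 and 40.8 ± 1.70 CPM. Here too the Ab libraries did not overlap the others, but the fall was smaller. It was 1.31-fold in NR (adjusted p = 1.01e-05) and 1.22-fold in SP (adjusted p = 0.000399, edgeR in both cases). Thus NRP2 passed the adjusted p without reaching the 2-fold minimum. Its log2 fold change was -0.39 in NR, and -0.45 in the fit with 1 NR library. The exons of NRP1 and NRP2 share 4.87% and 1.06% of their bases with a gene on the other strand, and the sources do not say whether counting used strand. The TPM ratio of NRP1 to NRP2 was 1.06 to 1.23 in NR and 0.902 to 1.16 in SP, and was higher in Ab at 1.79 to 2.08.

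VEGFA showed the widest change of the 5 genes with enough counts for the test. VEGFA (ENSG00000112715, chr6:43737921-43754224), the main ligand of VEGFR2, had 2869, 1314 and 1603 counts in NR, 2126, 2304 and 1986 in SP, against 11978, 15457 and 12262 in Ab. This was 102 ± 8.48 CPM in NR, 98.3 ± 2.09 in SP and 594 ± 15.7 in Ab (SD, n = 3 each). The lowest Ab library, at 583 CPM, was far above the highest nanoparticle library, NR library 1 at 111 CPM. VEGFA fell 5.90-fold in NR (-2.56 on the log2 scale, SE 0.05, adjusted p = 1.73e-24) and 6.15-fold in SP (log2 fold change -2.62, SE 0.05, adjusted p = 3.91e-26, edgeR for both). In the fit with 1 NR library, the log2 fold change in NR was -2.43. By fold change, VEGFA was number 132 from the bottom among 15009 genes tested in NR against Ab and number 147 among 15068 in SP against Ab. The 2 comparisons use the same Ab libraries and are therefore not independent.

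VEGFB did not follow VEGFA. VEGFB (ENSG00000173511, chr11:64002056-64006736), a ligand of VEGFR1, had 715, 435 and 470 counts in NR, 596, 684 and 562 in SP, against 532, 690 and 542 in Ab. The levels were 29.5 ± 1.80, 28.2 ± 1.43 and 26.4 ± 0.725 CPM. All NR and SP libraries were slightly above the highest Ab library in CPM, but the groups overlapped after TMM scaling, and the differences did not pass the test. The log2 fold change was 0.13 in NR (95% interval -0.02 to 0.28, adjusted p = 0.112) and 0.07 in SP (95% interval -0.08 to 0.22, adjusted p = 0.387, edgeR for both). With 1 NR library, the log2 fold change in NR was 0.055. A change of VEGFB as large as that of VEGFA lies outside both intervals.

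VEGFC (ENSG00000150630, chr4:177604689-177714076), the ligand best known for lymphatic vessels, was a low gene. It had 85, 30 and 32 counts in NR, 62, 71 and 79 in SP, against 89, 120 and 92 in Ab. Its level was 2.49 ± 0.707 CPM in NR, 3.26 ± 0.508 in SP and 4.49 ± 0.104 in Ab, with NR library 1 above the other NR libraries. No NR or SP library reached the lowest Ab library. VEGFC fell 1.77-fold in NR (-0.83 on the log2 scale, SE 0.19, adjusted p = 0.000405) and 1.40-fold in SP (log2 fold change -0.49, SE 0.17, adjusted p = 0.0119, edgeR for both). Of the 4 falls, this was the one that did not pass in every alternative fit tested against no change. In the fit with 1 NR library, the log2 fold change in NR was -0.46 (adjusted p = 0.0989, with the spread taken from the other groups). In SP it did not pass with DESeq2 (adjusted p = 0.0732) or without SP library 1 (adjusted p = 0.0514, edgeR).

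PGF (ENSG00000119630, chr14:75408537-75422329), placental growth factor, went the other way at very low counts. It had 8, 4 and 4 counts in NR, 10, 16 and 7 in SP, against 1, 3 and 1 in Ab. Every Ab library was at or under the floor, and every NR and SP library was above it. PGF had too few counts for the filter of the main edgeR fits. The ratio of its summed counts per depth was 3.86 in NR to Ab (exact 95% interval 1.35 to 13.5) and 6.77 in SP to Ab (2.63 to 22.2). These intervals hold the counting error and not the spread between libraries. Where alternatives kept the gene, it passed in SP against Ab with DESeq2 (log2 fold change 2.76, adjusted p = 0.0126) and in edgeR without the filter (2.65, adjusted p = 0.00134). It also passed in edgeR without SP library 3, Ab library 1 or Ab library 3. In those fits only the SP libraries carried it past the filter, so they carry no weight. In NR against Ab it did not pass (adjusted p = 0.163 with DESeq2 and 0.0943 in edgeR without the filter).

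Of the 9 members, 5 had enough counts for the test. In NR against Ab, 2 were called lower, VEGFA and NRP1, and 0 were called higher. To be called, a gene had to differ by 2-fold or more with an adjusted p not above 0.05. Of all genes tested in NR against Ab, 22.7% were called, 10.3% lower and 12.4% higher. In SP against Ab the same 2 members were called lower and 0 higher, beside 23.2% of all genes, 10.6% lower and 12.6% higher. The called number rose to 3 in some alternatives. In NR this was by VEGFC, lower, without NR library 1 (log2 fold change -1.14) or with a 1.5-fold minimum. In SP it was by PGF, higher, with DESeq2 and in edgeR without the filter. PGF was also called without SP library 3, Ab library 1 or Ab library 3. There only the SP libraries carried it past the filter, so those calls carry no weight. By the adjusted p alone, 4 of the 5 passed in NR and 4 in SP, all lower (VEGFA, NRP1, NRP2 and VEGFC), beside 72.7% and 73.0% of all genes, 36.4% lower and 36.4% higher in NR, and 36.6% lower and 36.4% higher in SP. The libraries of the 2 groups did not overlap for 4 of 5 members in either comparison, and for 74.7% and 75.1% of all genes, of which those with Ab above were 37.5% and 37.8%. With 5 members, the share past the adjusted p in either direction was near that of all genes. The median log2 fold change of the 5 was -0.83 in NR and -0.49 in SP, beside -0.01 in each comparison for all genes.

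**Figure D2:**
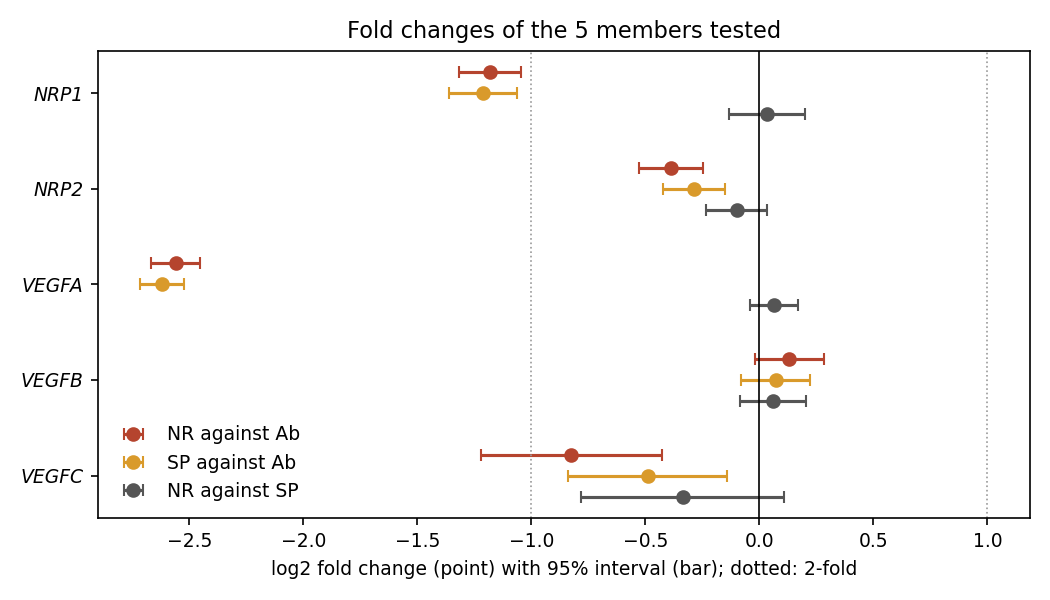
Log2 fold change (horizontal axis) of the 5 genes with enough counts for the edgeR fit, with 95% intervals as bars, in NR against Ab, SP against Ab and NR against SP. VEGFA and NRP1 lie beyond the dotted 2-fold line in both comparisons with Ab, and the 5 intervals of NR against SP all hold 0.

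NR and SP, whose gold differs in shape, were compared directly for the same genes. None of the 5 members passed the adjusted p, where 0.443% of all 14903 genes did, and 0.0201% were called. For VEGFA the log2 fold change was 0.06 (95% interval -0.04 to 0.17, adjusted p = 0.647) and for NRP1 it was 0.03 (95% interval -0.13 to 0.20, adjusted p = 0.905). The largest estimate was that of VEGFC, lower in NR by a log2 fold change of -0.34 (95% interval -0.78 to 0.11, adjusted p = 0.535). It was -0.64 without NR library 1, -0.20 without NR library 3 and -0.21 without SP library 3, and did not pass in any of these fits. NRP2 was at -0.10 (95% interval -0.23 to 0.04) and VEGFB at 0.06 (95% interval -0.08 to 0.21). At an unadjusted p under 0.05, 0 of the 5 members passed in edgeR, beside 12.9% of all genes. DESeq2 also called 0, but of the 5 members it gave an adjusted p only to VEGFA (0.644). For PGF, the ratio of counts in NR to SP was 0.569 (exact 95% interval 0.293 to 1.06). The intervals leave room for small differences between NR and SP, and a 2-fold change of any of the 5 tested genes lies outside them when all 6 libraries are fitted.

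Levels were compared between genes only per length. In TPM over merged exons, the order in NR was VEGFB (54.4 ± 3.73), VEGFA (25.7 ± 1.90), NRP1 (9.44 ± 0.821), NRP2 (8.32 ± 0.481), VEGFC (3.45 ± 0.941) and PGF (0.177 ± 0.0175). SP had the same order, but the ranges of NRP1 and NRP2 overlapped there. In Ab, VEGFA was first at 163 ± 2.54 TPM, ahead of VEGFB at 53.0 ± 0.966, NRP1 at 22.8 ± 1.36, NRP2 at 11.6 ± 0.411 and VEGFC at 6.79 ± 0.165. The 3 receptors could not be put in order in any group, since their ranges overlapped. In Ab the range of PGF overlapped that of FLT4, and PGF and the receptors were all at or under the floor there. Neighbours in the order that are not named as overlapping had separate ranges of 3 libraries each. The first places depend on the length used. The merged exons of VEGFA span 14431 bases, and its canonical transcript 3609. With canonical lengths, an alternative chosen after seeing the data, VEGFA was above VEGFB in all 9 libraries, by 1.51 to 2.01 times in NR and SP and by 11.2 to 11.3 times in Ab.

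**Figure D3:**
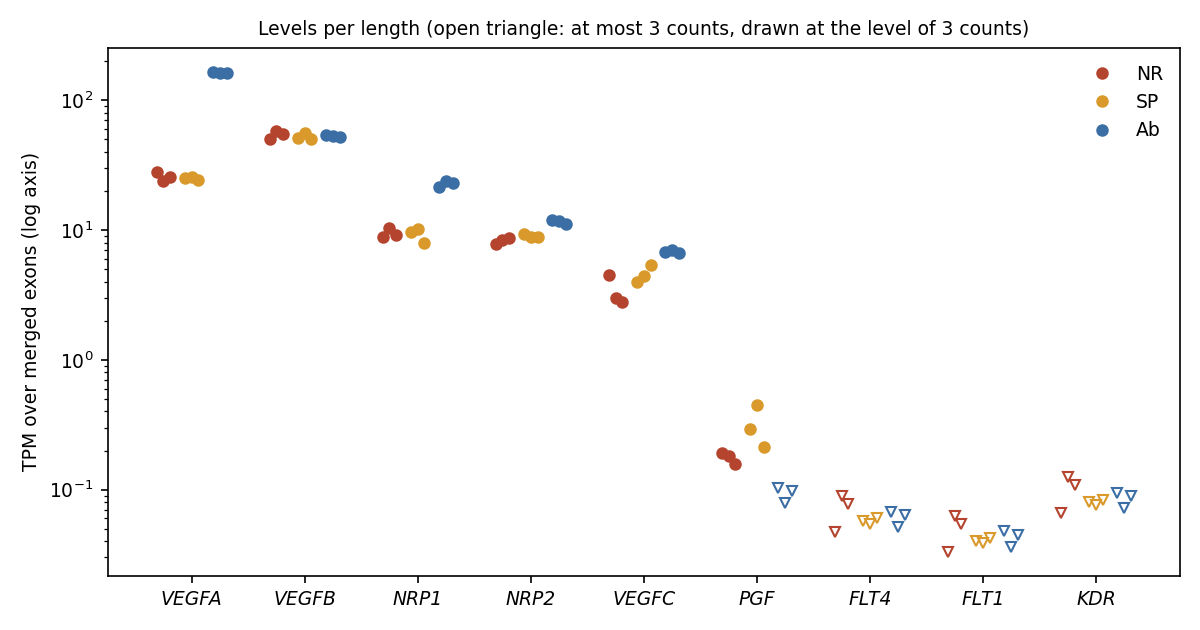
TPM over merged exons (vertical axis, log scale) of the 9 genes in each library, coloured by group. Open triangles are libraries with at most 3 counts, drawn at the level that 3 counts would give. The 3 receptors lie at this floor in all 9 libraries. Of the 5 genes with enough counts for the test, VEGFA has the widest gap between Ab and the nanoparticle groups.

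The make-up of the ligand pool differed between Ab and the nanoparticle groups. VEGFA took 28.1% to 33.4% of the summed TPM of the 4 ligands in NR libraries and 29.7% to 31.0% in SP libraries. In Ab libraries it took 73.0% to 73.2%. The 3 libraries of a group lay close together, and no nanoparticle library came near an Ab library. With canonical lengths, the share of VEGFA was 58.7% to 64.5% in NR and 60.3% to 61.9% in SP, while it was 90.7% to 90.9% in Ab, so its size depends on the length and its direction does not. The sum of the 4 ligands was 83.7 ± 1.23 TPM in NR, 82.5 ± 3.67 in SP and 223 ± 3.56 in Ab over merged exons. With canonical lengths the gap was wider, with 96.6 to 102 TPM in NR libraries, 94.7 to 102 in SP and 416 to 431 in Ab. VEGFB alone was 54.4, 52.6 and 53.0 TPM in the 3 groups.

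**Figure D4:**
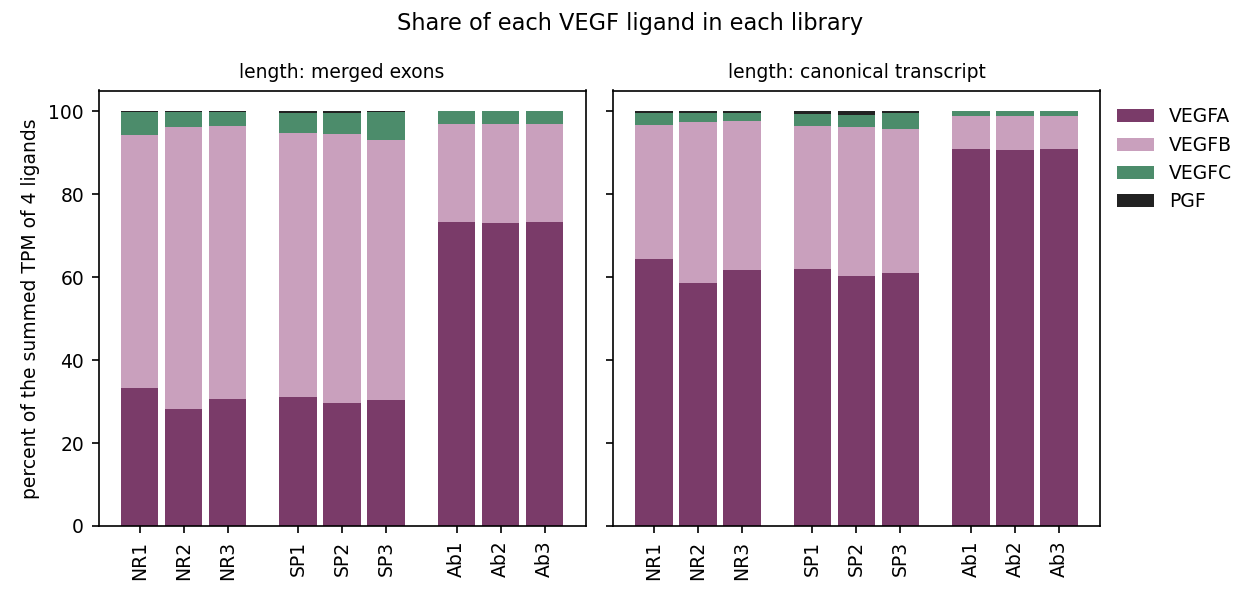
Share of each ligand in the summed TPM of VEGFA, VEGFB, VEGFC and PGF (vertical axis, percent) in the 9 libraries, with merged exon lengths on the left and canonical transcript lengths on the right. VEGFA takes about the same share in NR and SP libraries and a larger one in all 3 Ab libraries, with either length.

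The genes most like VEGFA over the 9 libraries were CPNE7, TRMT1 and SARS1, by Pearson's r of log2(CPM + 1) among 10763 genes with a mean of at least 100 counts. Their r was 0.9995, 0.9993 and 0.9990. CPNE7, a copine, had 1023, 495 and 631 counts in NR, 809, 861 and 752 in SP, against 6474, 8126 and 6435 in Ab. TRMT1 modifies transfer RNA, and SARS1 is the seryl-tRNA synthetase of the cytosol. The log2 fold changes in NR against Ab were -3.06 for CPNE7, -1.54 for TRMT1 and -1.36 for SARS1. An r of at least 0.99 was reached by 575 of the 10763 genes, so such a value is common where 3 libraries differ from the other 6. It describes the shared step between the groups.

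Genes around the ligands came next. Of 16 other ligands and processing factors, 11 were tested. In NR against Ab, 4 rose and 6 fell by the adjusted p (72.7% of all genes passed), and 1 was called in each direction (22.7% of all genes were called). PLAU, the urokinase that frees growth factors from the matrix, had 127 to 246 counts in the 6 nanoparticle libraries and 816, 1026 and 720 in Ab. Its log2 fold change was -2.03 in NR and -1.87 in SP (adjusted p = 1.14e-17 and 6.35e-17, edgeR). PCSK7, a proprotein convertase, rose, with a log2 fold change of 1.19 in NR and 1.25 in SP. GPC1, a heparan sulfate proteoglycan that binds VEGFA, was at 0.93 in NR, under the 2-fold minimum, and 1.09 in SP, where it was called. SDC4, another heparan sulfate proteoglycan, fell in both groups by a log2 fold change of -0.71. In SP against Ab, 5 rose and 4 fell by the adjusted p (73.0% of all genes passed), with 2 called higher and 1 lower (23.2% of all genes were called). VEGFD, the other lymphatic ligand, had 7, 0 and 0 counts in NR, 7, 4 and 7 in SP, against 0, 6 and 10 in Ab, and was not tested. Of the exon bases of PLAU and PCSK7, 31.0% and 20.6% are shared with genes on the other strand, so their counts are uncertain.

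Neuropilins also serve class 3 semaphorins, with plexins as the signalling partners. Of 13 semaphorin and plexin genes, 10 were tested. In NR against Ab, 3 rose and 6 fell by the adjusted p, and in SP 3 rose and 5 fell, where 72.7% and 73.0% of all genes passed. SEMA3G and SEMA3A were the 2 of 10 genes called, both higher in both groups, where 22.7% and 23.2% of all genes were called. SEMA3G had 97, 41 and 36 counts in NR, 65, 73 and 69 in SP, against 10, 19 and 13 in Ab, a log2 fold change of 2.25 and 2.31 (adjusted p = 3.41e-08 and 6.06e-09, edgeR). SEMA3A, a semaphorin that binds NRP1 in axon guidance, was at 1.14 in NR and 1.02 in SP. SEMA3B, PLXNA1 and PLXNA2 fell by less than 2-fold in both groups. For SEMA3B the log2 fold change was -0.70 in NR and -0.57 in SP. PLXNA4, SEMA3D and SEMA3E had at most 3 counts in every library.

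Genes downstream of the receptors were mostly read. Of 54 genes of VEGF receptor signalling, 48 were tested. In NR against Ab, 21 rose, 13 fell and 14 did not pass the adjusted p, and in SP 22 rose, 13 fell and 13 did not pass. Of all genes, 72.7% and 73.0% passed, so the share was near that of all genes. The median was 0.08 in NR and 0.12 in SP on the log2 scale. The same 6 genes were called in both, where 22.7% and 23.2% of all genes were. PLA2G4A, the cytosolic phospholipase A2, had 1040 to 1824 counts in the 6 nanoparticle libraries and 200, 316 and 262 in Ab, and rose by 2.62 in NR and 2.44 in SP on the log2 scale. HSPB1, the small heat shock protein downstream of p38, rose by 1.84 and 1.87 on the log2 scale. PLCG2, a phospholipase C, was at 1.15 and 1.12, and PTGS2, the inducible cyclooxygenase, at 1.10 and 1.08. SPHK1, a sphingosine kinase, fell, with a log2 fold change of -2.08 in both groups (3624, 4599 and 3519 counts in Ab, and 563 to 1108 in NR and SP). SHB, an adaptor of VEGFR2, was at -1.56 and -1.43. PLCG1, the phospholipase C that VEGFR2 recruits, rose by a log2 fold change of 0.59 in NR and 0.60 in SP, under the 2-fold minimum. PIK3R2 had at most 3 counts in every library, but 76.4% of its exon bases are shared with another gene, which makes its count uncertain. The share was 22.6% for PLCG2 and 23.0% for SHB.

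Among genes that regulate VEGFA, of 20, 19 were tested. In NR against Ab 3 rose and 11 fell by the adjusted p, beside 36.4% of all genes higher and 36.4% lower. In SP 4 rose and 11 fell, beside 36.4% higher and 36.6% lower. The median log2 fold change was -0.28 and -0.41, beside -0.01 for all genes. Those called were JUN, ZFP36L1, ATF4 and VHL, all lower in both groups, and FOS, higher in both, 5 of 19 where 22.7% and 23.2% of all genes were called. JUN, a subunit of AP-1, had a log2 fold change of -1.80 in NR and -1.71 in SP. ATF4, a transcription factor of the integrated stress response, had 8566, 4265 and 4746 counts in NR, 5718, 6405 and 6117 in SP, against 15860, 20093 and 16507 in Ab, with a log2 fold change of -1.36 and -1.52 (adjusted p = 1.72e-20 and 1.11e-20, edgeR). ZFP36L1, which binds AU-rich elements and promotes decay of VEGFA transcripts, was at -1.68 and -1.53. VHL, which marks HIF proteins for degradation, was at -1.13 and -1.18, and FOS was at 1.61 and 1.67. The list thus held falls of genes that raise VEGFA and of genes that lower it. Of the HIF subunits, the alpha subunits HIF1A and EPAS1 fell by less than 2-fold, with log2 fold changes of -0.28 and -0.18 for HIF1A and -0.81 and -0.79 for EPAS1. The beta subunit ARNT did not pass in NR (log2 fold change 0.09, adjusted p = 0.116, edgeR) and rose in SP (0.14, adjusted p = 0.0253). Exon bases shared with other genes made up 23.5% of VHL and 11.3% of HIF1A, which leaves their counts uncertain.

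HIF target genes, a group to which VEGFA itself belongs, moved in both directions. Of 22, 21 were tested, and in each comparison 6 rose and 11 fell by the adjusted p, which 72.7% of all genes passed in NR and 73.0% in SP. In NR the median was -0.17 and in SP -0.21 on the log2 scale. PFKFB4, a regulator of glycolysis, fell most, from 3172, 3800 and 3026 counts in Ab to 216 to 420 in NR and 245 to 270 in SP. The log2 fold change was -3.28 and -3.67 (adjusted p = 2.09e-25 and 4.26e-25, edgeR). ADM, which encodes adrenomedullin, was called lower in both groups, at -1.33 and -1.22, and HK2, a hexokinase, in NR only, at -1.15, with -0.98 in SP. Whether HK2 differs between NR and SP was tested directly and did not pass (adjusted p = 0.284, edgeR). P4HA2, a collagen prolyl hydroxylase, rose by 1.44 in each group. PGK1 and LDHA, enzymes of glycolysis, rose by less than 2-fold, PGK1 by 0.92 and 0.91 and LDHA by 0.86 and 0.83. CA9, with 35.7% of its exon bases shared with a gene on the other strand, had 0 to 8 counts and was not tested.

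Genes that VEGF is known to induce in endothelial cells were divided as well. Of 20, 13 were tested. In NR 7 rose and 6 fell by the adjusted p, and in SP 6 rose and 5 fell (72.7% and 73.0% of all genes passed). CXCL8 and EGR1 were called higher in both groups, and F3, DUSP5 and DLL4 lower in both, where 22.7% and 23.2% of all genes were called. F3, tissue factor, had 3653, 4912 and 3898 counts in Ab and 540 to 1060 in NR and SP, a log2 fold change of -2.28 and -2.12. DUSP5, a phosphatase of ERK, was at -1.84 and -1.73, and CXCL8, interleukin 8, at 1.63 and 1.83. ESM1, SELE and ANGPT2 had at most 3 counts in every library.

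Other angiogenic factors and receptors, the last of these 7 lists, moved in both directions. Of 30, 18 were tested against Ab. In NR 5 were called higher and 4 lower, and in SP 5 higher and 2 lower, where 22.7% and 23.2% of all genes were called. The median change was -0.33 in NR and -0.04 in SP on the log2 scale. PDGFRB, the receptor of pericytes and fibroblasts, had 320, 150 and 165 counts in NR, 256, 272 and 275 in SP, against 10, 11 and 8 in Ab. COL18A1, the parent of endostatin, had a log2 fold change of 2.63 in NR and 2.65 in SP. MDK and FGFBP1 were also called higher in both groups. PDGFRB and PDGFD are counted among those called higher, but both passed the filter only through the nanoparticle groups. Their calls therefore carry no weight. PDGFD had 0, 3 and 0 counts in Ab, and the ratio of its summed counts per depth was 34.9 in NR to Ab (exact 95% interval 11.6 to 173) and 37.3 in SP to Ab (12.4 to 184). FGF2, a heparin-binding growth factor, was at -1.09 in NR, where it was called, and -0.96 in SP. PDGFB, at -1.02 and -0.88, likewise passed the 2-fold minimum only in NR. EFNB2, the ephrin of arterial endothelium, was lower in both, at -2.79 and -2.98, as was ADM. The counts of EFNB2, COL18A1 and FGF2 are uncertain, since 36.4%, 18.5% and 13.0% of their exon bases are shared with other genes. In NR against SP, FGF2 and PDGFB did not pass (adjusted p = 0.257 and 0.404, edgeR), and over all 7 lists 0 genes passed the adjusted p. By other tools and settings, 0 to 6 genes of these lists did, 2 of them with DESeq2 (ATF4 and SEMA3B).

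**Figure D5:**
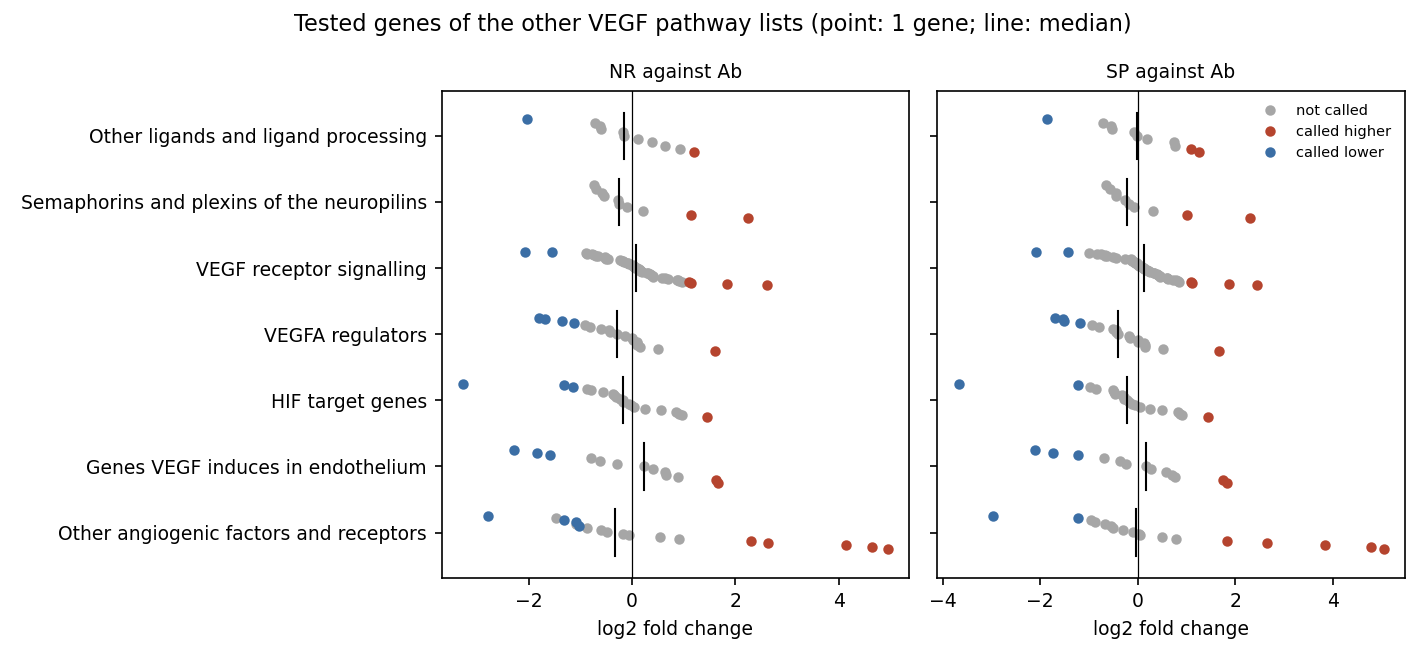
Log2 fold change (horizontal axis) of each tested gene of the 7 other lists, in NR against Ab (left) and SP against Ab (right). Colour marks genes called higher or lower, the black line is the median of a list, and the value of PDGFD, with at most 3 counts in each Ab library, is a fitted one. PDGFRB, like PDGFD, passed the filter only through the nanoparticle groups. Most lists hold genes called in both directions.

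Markers of other cell types were read beside these results. Of 11 endothelial markers found, TEK, TIE1, ERG, ROBO4 and EMCN had at most 3 counts in every library, and ROBO4 and EMCN had 0. The most abundant was ENG. Their summed level was 169, 168 and 165 CPM in NR, 162, 165 and 167 in SP, against 117, 106 and 106 in Ab. CDH5, the cadherin of endothelial junctions, rose in both groups (log2 fold change 2.35 in each), and VWF went from 0, 0 and 1 counts in Ab to 34, 21 and 21 in NR and 28, 33 and 34 in SP. The 15 gastric epithelial markers summed to 2427, 2446 and 2477 CPM in NR, 2601, 2498 and 2494 in SP, against 990, 928 and 936 in Ab. CDH1, E-cadherin, had 5, 5 and 9 counts in Ab and 79 to 159 in NR and SP. The 12 leukocyte markers summed to 5.60, 7.07 and 6.65 CPM in NR, 8.30, 6.90 and 6.07 in SP, against 2.76, 1.52 and 1.76 in Ab, led over all 9 libraries together by CSF1R, with 7 at or under 3 counts in every library, among them PTPRC, and 3 at 0 (MS4A1, LYZ and CD163). The leukocyte markers did not all move one way. CSF1R had 76, 56 and 70 counts in NR, 124, 91 and 56 in SP, against 3, 8 and 3 in Ab. It passed the filter only through the nanoparticle groups, so its test is not used here. CD14, with 2, 7 and 3 counts in NR, 4, 1 and 4 in SP, against 21, 13 and 8 in Ab, was called lower in NR and was not tested in SP. The 11 fibroblast markers summed to 348 to 389 CPM, led by VIM, with 10 tested. LUM, DCN, FAP and PDGFRB rose in both groups, VIM fell by less than 2-fold in both, and 5 did not pass, where 72.7% and 73.0% of all genes passed. The rise of PDGFRB carries no weight, since it passed the filter only through the nanoparticle groups. Among the 5 was COL1A2 with 37, 0 and 0 counts in NR, 49, 49 and 43 in SP, against 198, 278 and 33 in Ab. Shared exon bases make the counts of VIM (24.6%), LYZ (34.7%) and ROBO4 (18.0%) uncertain. The endothelial, epithelial and leukocyte sums were thus higher in every NR and SP library than in every Ab library, opposite to VEGFA and NRP1, and their part in that step was not tested. In bulk RNA, fewer cells of a type and less RNA per cell cannot be told apart.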

How the data were processed

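Poly-A RNA of SNU5 cells was sequenced in 9 libraries (3 each of NR, SP and Ab). The authors filtered reads (adapters, poly-N, low quality), aligned them with HISAT2 2.1.0 and counted them per gene; DESeq2 1.16.1 is named in their processing notes. The build is given as hg19 in the reporting summary and mm9 in the processing notes, and the IDs are human. The annotation release and strand setting are not given in the sources used here. The deposited tables hold whole counts for each Ensembl ID, without scaling. Names, GRCh37 positions and lengths came from GENCODE release 44, which held 59858 of 60880 IDs; the 1022 others held at most 0.115% of the counts of a library. Columns of other samples: 0.

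Groups were compared in pairs, on 6 libraries each, with edgeR 4.0.16 in R 4.3.3 (TMM, filterByExpr with minimum count 10 and minimum total count 15, robust quasi-likelihood test, Benjamini-Hochberg adjustment over all genes tested). Calls needed an adjusted p of at most 0.05 and 2-fold. Floors were 3 counts per library and intervals 95%. The fit was also run on simulated counts, and no result here rests on that run. Python 3.11.15 with pandas 2.3.3, scipy 1.17.1 and matplotlib 3.10.9 made tables and figures. Alternatives were DESeq2 1.42.0, RLE scaling, other count filters, glmTreat, a 1.5-fold minimum, all 9 libraries in one fit, a replicate block, each library left out, CPM levels with TMM factors, and, added after seeing the data, canonical lengths and leaving out NR libraries 2 and 3.

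The 9 members and all lists were chosen with earlier results of these data known, and 222 of 223 symbols were found. Named from each list were the 3 genes with the smallest p against Ab in each nanoparticle group, and for VEGFA the 3 genes with the highest correlation. The other genes named were chosen after their values were seen. Within groups, the chi-square between 2 libraries was 1.84 to 7.43 per gene, so each counted as 1 replicate. Protein sequences were not used here.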

Additional observations from a re-analysis of the deposited data

How the results depend on the processing

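VEGFA and NRP1 were called lower against Ab, and passed, under all alternatives run in both groups. Their log2 fold changes ranged from -2.64 to -2.43 and -1.26 to -1.14 in NR, and from -2.64 to -2.60 and -1.29 to -1.11 in SP. Against no change, NRP2 also passed in all fits, VEGFB in none, and VEGFC did not pass the adjusted p in the 3 fits named above. Of 723 fitted log2 fold changes against Ab over 29 genes named by rule, the other 720 kept direction and side of the threshold. The count of members past the adjusted p stayed at 4 in NR with each library left out. In SP, where it was 4, it was 3 to 5 when a library was left out. The counts of 5 took in PGF, which only the SP libraries carried past the filter in those fits. For NR against SP, 0 of the members passed in any fit that gave them an adjusted p. With DESeq2, of the 5 tested members only VEGFA had one. The sign turned for NRP1 without NR library 2 (-0.026) or SP library 3 and for VEGFA without NR library 1. With 1 library left out, the change on the log2 scale was -0.056 to 0.10 for NRP1 and -0.0080 to 0.12 for VEGFA.

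Of all genes, a 1.5-fold minimum called 6348 in NR against Ab, 6385 in SP against Ab and 5 in NR against SP. A test against 2-fold (glmTreat) called 2061, 2131 and 0. In NR against SP, where 3 genes were called, DESeq2 called 0, no filter beyond 1 count gave 27, and leaving out 1 library gave 0 to 28. The 28 were called without NR library 1, a fit in which PDGFRA and PIK3CA passed the adjusted p. For the other lists in NR against SP, the number past the adjusted p was 2 with DESeq2, 6 with no filter beyond 1 count, 1 with all 9 libraries in one fit, 1 with the replicate block, and 0 to 3 with a library left out. Among the 9 members, CPM with TMM factors, which ignores length, put VEGFA in place 1 and NRP2 in place 2 in NR and SP, NRP1 in place 2 and NRP2 in place 3 in Ab, and VEGFB in place 4 in all groups. Canonical lengths put VEGFA in place 1 and VEGFB in place 2 in NR and SP. The counts behind these places are the same, and only the length used differs. Why the numbers of genes called or passing moved between settings was not tested.

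The labels give the replicate numbers no shared origin, and not every same-numbered pair of a comparison correlated above 0.1 in its deviations from the group means, so the numbers were not taken as pairs. The correlations were -0.24 to -0.034 in NR against Ab, -0.057 to 0.0038 in NR against SP and 0.046 to 0.10 in SP against Ab, where each of the 3 numbers correlated best with itself, a hint from the data and not the design. With the replicate number as a block, 3414, 3493 and 4 genes were called in NR against Ab, SP against Ab and NR against SP, and the counts of members called were unchanged at 2, 2 and 0. Depth limits what can be said of KDR, FLT1, FLT4 and PGF.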
